A study of Mus musculus with 2 samples.

Results

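The cytosolic ribosomal protein genes were taken as every gene of the table whose symbol begins with Rpl or Rps and follows the numbering of the ribosomal proteins, with Rplp0, Rplp1, Rplp2 and Rpsa, and without the Rps6k kinases. The rule found 80 of 12707 listed genes, 48 of the large and 32 of the small ribosomal subunit. All 77 symbols expected for the core mouse ribosome under these naming rules were in the table, and Rpl7l1, Rpl22l1 and Rps27l were the 3 further members. RNA left after removal of ribosomal RNA was sequenced from live CD45- cells of Py8119 tumours, CD45 being the surface protein that marks leukocytes and Py8119 a mouse mammary tumour cell line. Py8119 cells with wild-type Mtdh had been injected in both groups. The hosts were Mtdh wild type (WT) in one group and Mtdh knock out (KO) in the other. Each host genotype had 1 library, and the labels do not say how many tumours or mice went into it, nor the strain, age or time of harvest. The design text speaks of pairs of samples without saying what was paired. There is therefore no replicate check for any difference below, no test was run, and intervals cover counting error only.

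Ribosomal proteins coat and stabilise the ribosomal RNA of both subunits, and each protein of the core is needed in about the same number of copies per ribosome. Their messenger RNAs are among the most abundant of growing cells, and most of them begin with a short run of pyrimidines, the terminal oligopyrimidine (TOP) tract, through which mTOR signalling controls their translation. The genes also left many processed pseudogenes in mammalian genomes, and several of them carry small nucleolar RNA (snoRNA) genes in their introns. Mtdh, also called AEG-1 or LYRIC, encodes a membrane and RNA-binding protein studied for its part in breast cancer.

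The start regions of the genes whose levels differed most between the hosts are shown because the pyrimidine run is the sequence feature that the family shares. Sequence came from RefSeq on GRCm38.p6, where 60 of the 80 genes had an entry. Capitals mark the longest unbroken run of C and T between 25 bases before and 50 bases after the annotated start, inside a window of 30 bases. The first 4 sequences belong to the genes whose level was higher by 1 or more on the log2 scale in the KO host, with Rps27, which was listed at 0 in the WT host. They lie at chr3:90213631-90213660 on the minus strand, chr8:123102324-123102353 on the plus strand, chr5:107900498-107900527 on the plus strand and chr10:23787182-23787211 on the minus strand.
Rps27: tccgctttcgCTCCTTTCCggcggtgacga
Rpl13: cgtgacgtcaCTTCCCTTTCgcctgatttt
Rpl5: cctacagccaCTCTTTCTCacgtcgcttgc
Rps12: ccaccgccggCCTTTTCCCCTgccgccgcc
The next 4 belong to genes that were lower by 1 or more. They lie at chr10:128626484-128626513 on the minus strand, chr2:180257399-180257428 on the plus strand, chr2:32961732-32961761 on the plus strand and chr7:116334159-116334188 on the minus strand.
Rps26: agccgccggaTCCTCTTTCgagtcttggct
Rps21: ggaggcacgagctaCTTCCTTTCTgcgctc
Rpl12: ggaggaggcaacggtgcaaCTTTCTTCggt
Rps13: agtggcgtcaCTTCCTgtgcggcttgattt
The run was 9 to 11 bases long in the higher genes and 6 to 10 bases long in the lower genes, so the lengths overlapped. It began 2, 16 and 20 bases before the annotated start in Rps27, Rpl13 and Rpl5, and 8 bases after it in Rps12. The runs of Rpl13 and Rpl5 also ended before the start. In Rps26, Rps21, Rpl12 and Rps13 the run began 3, 34, 39 and 12 bases after the start. The capitals thus mark a run near the start, and whether it is a TOP tract was not tested. Rpl23a, Rpl17 and Rps29, also lower by 1 or more, are not shown.

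Over the family, 47 of the 60 genes with a RefSeq entry had a run of 8 or more pyrimidines near an annotated start (78.3%), against 8213 of 27025 genes in the whole RefSeq table (30.4%). Counted by start, the share was 69.0% of 71 windows, and it was 76.2% for the large and 58.6% for the small subunit. The ETS core CCGGAAG, searched on both strands of 300 bases from 250 before to 50 after the start, was in 36.6% of the 71 windows and in 8.86% of all windows of that length. The YY1 core AAGATGGC was in 11.3% of them and in 2.75% of all windows, while TATAAA was in 9.86% and in 13.6%. The ETS and YY1 cores can share the letters AAG, and the ETS core read on the other strand can share letters with a pyrimidine run. A match describes the window and not a bound site.

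The table gives log2(FPKM + 1), where FPKM is fragments per kilobase of the gene's genomic span and per 1000000 fragments. Reads per 1000000 reads of a library are written RPM. Multiplying each value back by its span and the library's depth gave 26069365 reads for the WT host library and 23381839 for the KO host library. From 0.5 to 1000 reads, 84.9% and 83.4% of the values were whole numbers within 0.1 read. Mtdh itself stood at 4.19 in the WT host and 4.06 in the KO host on the log2 scale, which does not check the host labels, since the injected cells carry the wild-type gene in both groups. Leukocyte markers (5 of 8 listed) summed to 146.3 RPM in the WT host and 161.8 in the KO host. Lyz2, a lysozyme of myeloid cells, made up most of this at 134.4 and 148.4, while Ptprc, the gene for CD45, had 46 and 64 reads. Of the erythroid markers 1 of 6 was listed, and no skeletal muscle or testis marker was. Fibroblast markers (5 of 6 listed) summed to 2067 RPM in the WT host and 822.9 in the KO host. Most of this fall lay in Col3a1, at 1136 and 473.7, and Col1a1, at 618.0 and 88.1, while Pdgfra was nearly level at 223.8 and 216.2. Endothelial markers (3 of 6 listed) summed to 18.3 and 14.2 RPM, with 1 gene higher and 1 lower by 1 or more in log2 ratio. Pericyte and muscle markers (3 of 6 listed) summed to 387.1 and 83.0, and of these Cspg4 had 190.0 reads in the WT host and 0 in the KO host. Epithelial and tumour markers (5 of 6 listed) summed to 3362 and 3198, of which Vim made up 3170 and 2907. The other 4 were higher in the KO host, with Krt8 at 121.7 and 173.2, Krt18 at 63.6 and 100.03, Krt19 at 3.84 and 11.6, and Epcam at 2.11 and 6.46 RPM. The part of these other cells in the ribosomal protein values was not tested, and in sorted bulk RNA fewer cells of a type and less RNA per cell cannot be told apart.

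The ribosomal protein genes took 0.970% of the reads in the WT host (95% exact interval 0.966 to 0.974) and 1.01% in the KO host (the interval reached 1.01). Their summed RPM was 1.04 times as high in the KO host (interval of the ratio 1.03 to 1.05). The large subunit genes took 0.612% and 0.652%, a ratio of 1.07 (1.06 to 1.07), and the small subunit genes 0.358% and 0.356%, a ratio of 0.993 whose interval began at 0.983 and took in 1. The ratio of large to small subunit reads was 1.71 in the WT host and 1.83 in the KO host. With reads scaled to the library total, 1 gene decided the direction of both the sum and this ratio. Rpl13 alone had 310.3 RPM in the WT host and 959.8 in the KO host. Without it the summed ratio was 0.971, and the KO host's large to small ratio was 0.966 times that of the WT host. Both lie in the other direction, the sum only at this scaling. The large subunit genes without Rpl13 summed to 5806 and 5564 RPM. Mitochondrial ribosomal protein genes, a separate family for the ribosome inside mitochondria, took 0.108% and 0.0991% of the reads.

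**Figure D1:**
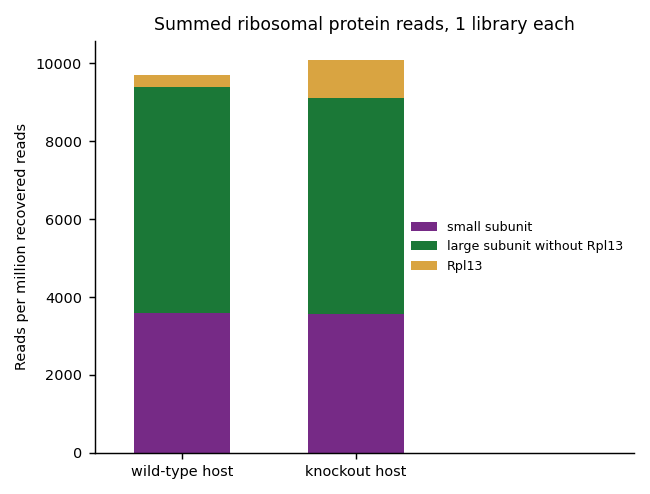
Summed RPM of the small subunit genes (purple), of the large subunit genes without Rpl13 (green) and of Rpl13 (yellow), stacked for the WT host library and the KO host library (1 library each, no error bars). The small subunit segments are nearly equal at 3583 and 3557, while the Rpl13 segment is 310.3 in the WT host and 959.8 in the KO host.

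Although the proteins are used in about equal numbers, the transcript levels spread widely. Per kilobase of a GENCODE M21 transcript, the median level was 65.4 RPM in the WT host and 64.8 in the KO host. In the WT host the quartiles were 33.7 and 213.0, and the 79 genes with reads ran from 0.667 (Rpl29) to 1566 (Rplp1). The 5 genes with the most reads held 31.0% of all ribosomal protein reads in the WT host and 35.7% in the KO host. The subunits lay close together on this scale, with medians of 67.1 and 66.9 for the large subunit and 61.3 and 64.8 for the small. The order of the genes was nearly kept between the libraries: across the 78 genes with a mean log2 level of at least 1, Spearman's rho was 0.93 and Pearson's r 0.91. All genes past the same filter gave 0.85 and 0.93. These are descriptions across genes, which share each library's depth and are not independent replicates.

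**Figure D2:**
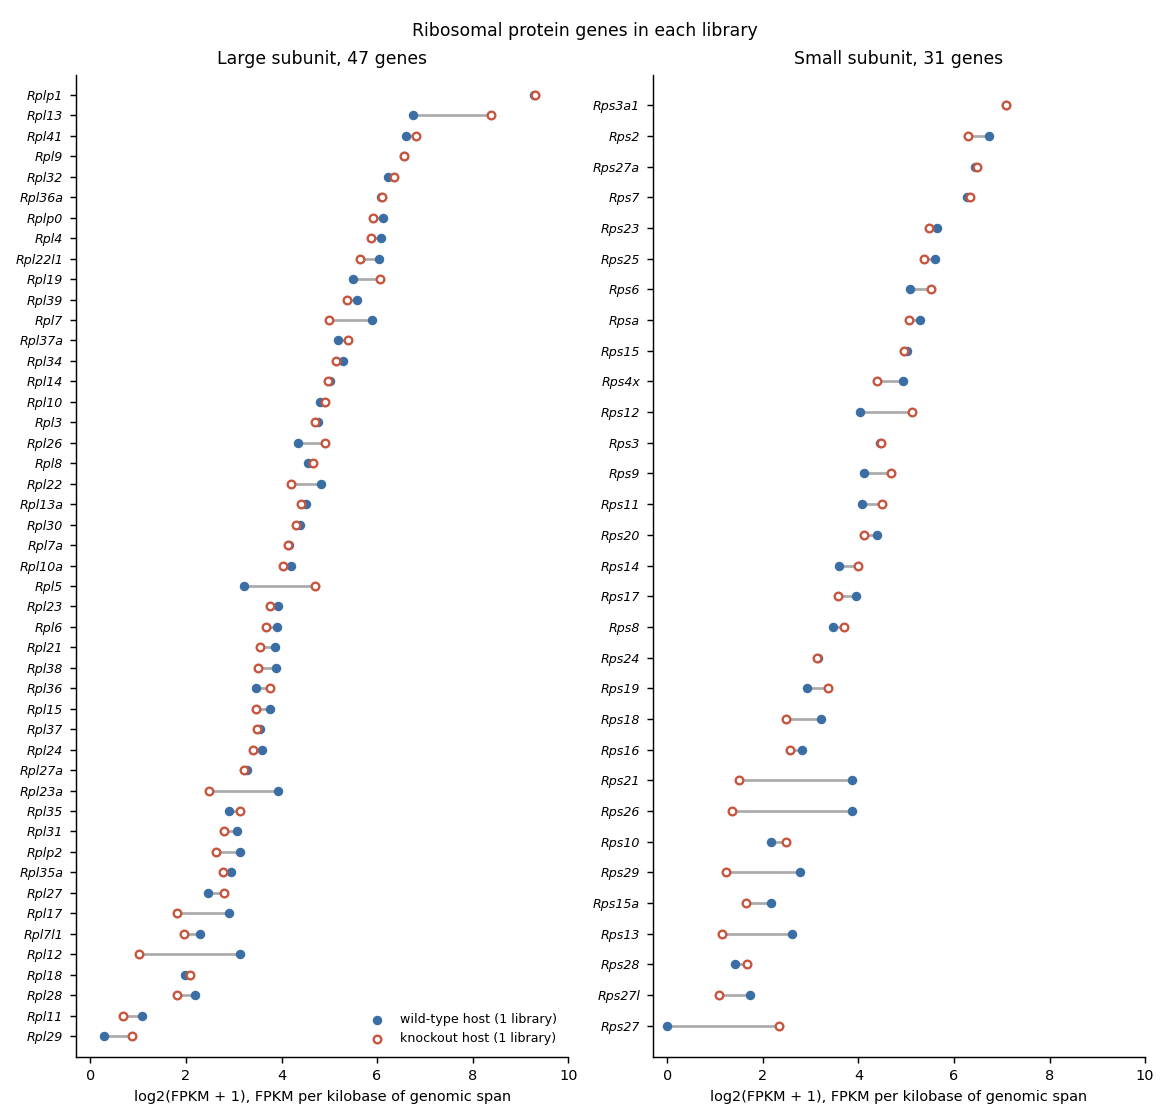
Log2(FPKM + 1) of 47 large and 31 small subunit genes in the WT host library (filled points) and the KO host library (open points; 2 of the 80 members are not drawn), ordered by the mean of both and joined by a line per gene. Rplp1 sits highest in both libraries at 9.28 and 9.31, most lines are short, and Rps27 is the only member at the floor in the WT host.

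The 3 stalk proteins, which recruit the GTP-hydrolysing translation factors to the large subunit, differed greatly in level. Rplp1 stood at 9.28 in the WT host and 9.31 in the KO host on the log2(FPKM + 1) scale, the highest of all members in both libraries, with 20372 and 18682 reads. Rplp0, the scaffold of the stalk, stood at 6.11 and 5.92. Rplp2, which pairs with Rplp1 in the stalk, stood at 3.14 and 2.62. Per kilobase of transcript, Rplp1 was at 1566 RPM in the WT host and Rplp2 at 34.2, so the order was the same with transcript length in place of span.

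Of the other highly placed large subunit genes, Rpl13 stood at 6.76 in the WT host and 8.38 in the KO host and is described below. Rpl9 and Rpl41 differed little between the hosts. Rpl9 was at 6.56 in both libraries, and Rpl41, which encodes the smallest ribosomal protein, at 6.61 and 6.81. On this scale, which divides by genomic span, the highest small subunit genes were Rps3a1 at 7.10 and 7.09 and Rps2 at 6.72 and 6.30. Rps27a at 6.43 and 6.48 and Rps7 at 6.28 and 6.33 came next. The order depends on the scale. Rps14, with a span of 31449 bases, stood at 3.59 and 3.99. Per kilobase of transcript it was at 582.1 and 784.9 RPM, against 662.6 and 660.7 for Rps3a1. Rps27a is made as a fusion with ubiquitin. Rps6, whose protein is phosphorylated downstream of mTOR, stood at 5.08 and 5.52. Apart from Rpl13, Rps6 and Rps2 had the largest differences of the genes named here, of 0.44 and -0.43.

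Of the 78 genes with a mean log2 level of at least 1, 4 were higher and 7 lower by 1 or more in the KO host (a difference of 1 on this scale is about a doubling of FPKM + 1). Over all 6057 genes past that filter, 2.31% were higher and 2.64% lower by as much, 4.95% together. The 11 ribosomal protein genes were 14.1% of those measured, above that background. They include Rps27, which passed the filter only through the KO host library. Without Rps27, 3 of 77 members were higher and 7 lower by 1 or more. The family's median difference was -0.10 against -0.03 for all genes, with 29 members above 0 and 49 below. Of all 6057 genes, 2816 were above 0 and 3241 below. The interquartile range of the members was 0.48, close to the 0.46 of all genes, so the larger share lay in the tails. Genes within the members' own range of mean levels gave 4.86%. Differences of up to 0.5 in size were found for 57 members (73.1%, against 80.8% of all genes), and the 10 between were 3 higher genes (Rps9, Rpl26 and Rpl19) and 7 lower ones (Rpl7, Rps18, Rps27l, Rpl22, Rps4x, Rps15a and Rplp2). Of 79 members with reads in both libraries, the counting interval of the RPM ratio lay above 1 for 24, below 1 for 41 and took in 1 for 14. These intervals were not counted over all genes, so the 3 counts have no background and are not read as a trait of the family. How much of the differences lies within the spread between tumours cannot be told with 1 library per host.

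**Figure D3:**
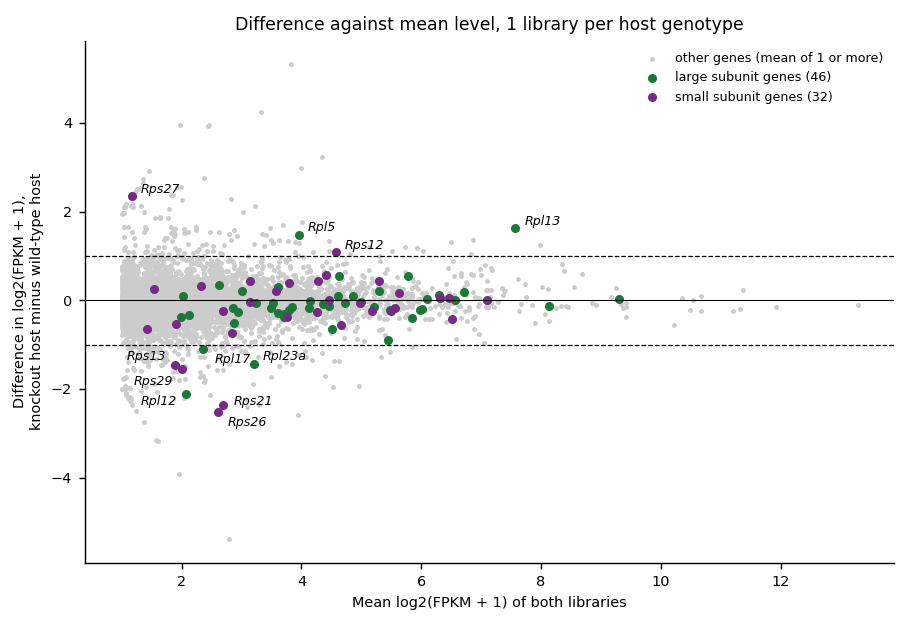
Difference in log2(FPKM + 1), KO host minus WT host, against the mean level of both libraries, for ribosomal protein genes (green, large subunit; purple, small subunit) and all other genes with a mean of at least 1 (grey). Dashed lines mark 1 and -1; the 7 lower genes lie at mean levels under 4, and Rpl13, at a difference of 1.62, is the most abundant member past either line.

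Low read numbers went with the larger differences. Among members with under 1000 reads in both libraries together, 6 of 13, Rps27 among them, differed by 1 or more (46.2%), against 15.5% of all genes in that range. From 1000 to 5000 reads it was 3 of 36 (8.33%, against 3.48%), and with 5000 reads or more 2 of 29 (6.90%, against 1.72%). Across the 78 members, the size of the difference and log2 of the reads had a Spearman's rho of -0.38 and a Pearson's r of -0.41. The share was thus above that of all genes in each of the 3 ranges, on counts of 6, 3 and 2 genes.

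The large subunit had 46 measured genes, with a median difference of -0.13, 2 higher and 3 lower by 1 or more. The small subunit had 32, with a median of -0.05, 2 higher (Rps27 among them) and 4 lower. The interquartile range was 0.39 for the large and 0.72 for the small subunit. Below 0 were 31 of 46 large and 18 of 32 small subunit genes. Over all genes, 4.95% differed by 1 or more and 3241 of 6057 lay below 0. With 1 library per host these counts describe the libraries, and the difference between subunits was not tested.

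Among the large subunit genes that were higher, Rpl13, whose span lies on chromosome 8 from 123829089 to 123831983 (plus strand; all spans are given in mm39, the build in the submitters' processing notes), had 8090 reads in the WT host and 22441 in the KO host. Its log2 level went from 6.76 to 8.38, a difference of 1.62, and its RPM was 3.09 times as high (3.02 to 3.17). It held the most reads of any member in the KO host. Rpl5, on chromosome 5 from 108048368 to 108056871 on the plus strand, had 1836 and 4955 reads. Its levels were 3.21 and 4.70, and the ratio was 3.01 (2.85 to 3.18). Rpl5 and Rpl11 carry the small ribosomal RNA of the large subunit into the ribosome and, when assembly fails, bind Mdm2, the inhibitor of p53. Rpl11 did not share the direction of Rpl5: it stood at 1.07 and 0.69, with 722 and 361 reads, 1.79-fold lower in the KO host (1.58 to 2.04), and its mean level was below the filter.

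The lower large subunit genes were Rpl12, Rpl23a and Rpl17. Rpl12, a protein at the base of the stalk, lies on chromosome 2 from 32851571 to 32855357 on the plus strand and had 765 and 90.2 reads. It stood at 3.13 in the WT host and 1.01 in the KO host, 7.62-fold lower in RPM (6.12 to 9.59). Rpl23a, at the mouth of the exit tunnel for the growing protein, had 978 and 285 reads. Its levels were 3.92 and 2.48, 3.08-fold lower (2.69 to 3.52). Rpl17, also near the tunnel, had 820 and 285 reads, with levels of 2.91 and 1.82, 2.58-fold lower (2.25 to 2.96). Just short of the size rule was Rpl7, at 5.89 and 4.99, a difference of -0.90. Rpl19 and Rpl26 lay on the other side, at differences of 0.55 and 0.55.

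Rps27 was the 1 member listed at 0 in a library. Its deposited log2 value in the WT host was 6.04e-06, far below the worth of 1 read, and in the KO host it was 2.35, with 108 reads. It passed the filter on the mean only through the KO host library, and no fold is given. The gene lies on chromosome 3 from 90119829 to 90120958 on the minus strand, and its protein is a zinc-finger protein of the small subunit. GENCODE M21 annotates Rps27rt as a protein-coding copy of its coding sequence, which was not analysed here. In the table, 530 values in the WT host and 432 in the KO host were under 0.01 read, although every listed gene had at least 10 reads over both libraries.

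Rps12, the other small subunit gene that was higher, stood at 4.04 and 5.12, with 843 and 1652 reads, 2.19 times as high in RPM (2.01 to 2.38). Its span is on chromosome 10 from 23661081 to 23663173 on the minus strand. The 4 lower genes had the fewest reads of the small subunit in the KO host. Rps26, which contacts the messenger RNA upstream of the start codon, lies on chromosome 10 from 128460403 to 128462616 on the minus strand and had 787 and 81.3 reads. Its level was 3.87 in the WT host and 1.36 in the KO host, 8.71-fold lower in RPM (6.93 to 11.1). This was the lowest difference in the family, at -2.51.

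Rps21 followed, with 380.0 and 46 reads and levels of 3.87 and 1.51, 7.41-fold lower (5.45 to 10.3). Its span is on chromosome 2 from 179899170 to 179900238 on the plus strand, and its values were whole reads in both libraries. Rps29, a small zinc-binding protein of the subunit's head, had 223 and 46.3 reads, with levels of 2.77 and 1.23, 4.35-fold lower (3.15 to 6.11). Rps13 had 360.0 and 77.2 reads, with levels of 2.62 and 1.16, 4.19-fold lower (3.27 to 5.44). Rps18 was short of the size rule at -0.73, and Rps9 had a difference of 0.57.

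**Figure D4:**
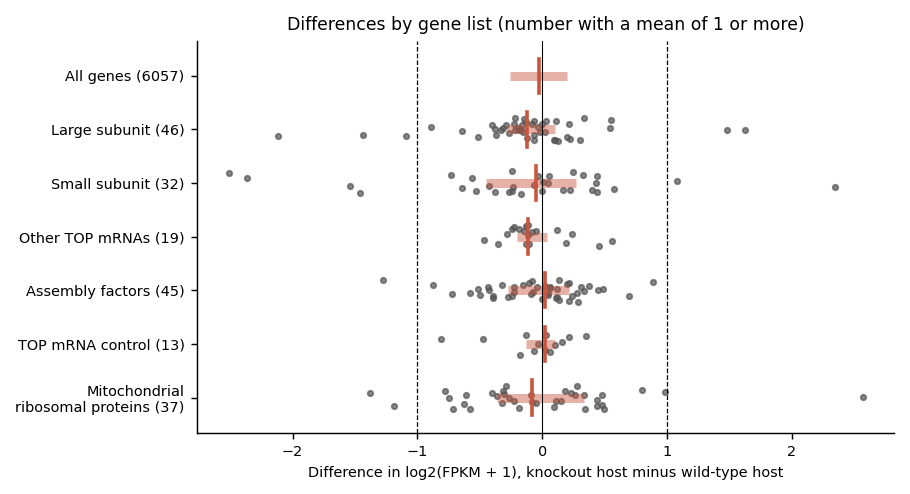
Difference in log2(FPKM + 1), KO host minus WT host, of each measured gene in the large subunit, the small subunit and the other lists, 1 point per gene, with the list's median as a vertical bar and its quartiles as a shaded bar (for all 6057 genes the bars only). Dashed lines mark 1 and -1; the small subunit spans from -2.51 to 2.35, and the lists of other TOP mRNAs and of TOP mRNA control stay within them.

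On the read scale, which needs no added constant, 78 members had at least 100 reads in all and reads in both libraries. Of these, 3 were higher and 8 lower by 1 or more in log2 ratio, where 8.39% and 11.3% of the 10647 genes past the same filter were, 19.7% together. The eighth lower gene was Rps27l, at 1.74 and 1.09 on the log2(FPKM + 1) scale with 209 and 91 reads, 2.06-fold lower (1.60 to 2.67). The members' shares were 3.85% and 10.3%, the first under the background and the second near it, and this background takes in many genes with few reads. Among the 5358 such genes within the measured members' range of mean levels, 4.24% were higher and 5.13% lower. Against these, the members' share was near for higher genes and above for lower ones. Rps27 is left out of these counts.

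The 3 paralogue members were each compared with their main copy. Rps27l, a p53 target, shares 76.2% of 252 aligned coding bases with Rps27, and the differences had opposite signs. Rpl22l1 shares 74.6% of 299 bases with Rpl22 and can take its place in the ribosome. Rpl22l1 stood at 6.05 and 5.65 and Rpl22 at 4.83 and 4.19, both lower in the KO host. Rpl7l1, at 2.30 and 1.96, shares 66.7% of 189 bases with Rpl7. Per kilobase of transcript, Rpl22l1 exceeded Rpl22 in both libraries, at 235.1 and 177.3 against 112.0 and 70.3 RPM. Rpl29 was the lowest member with reads in both libraries, at 0.29 and 0.88, with 12.3 and 41.3 reads, and it was, with Rpl11, below the filter. Rpl28, at 2.18 and 1.81, was the third lowest of the large subunit by the mean of both libraries, and Rps28, at 1.42 and 1.67, was low in the small subunit.

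Reads of near-identical copies cannot always be assigned to 1 gene, so the copies of each coding sequence were counted among the pseudogene transcripts of GENCODE M21, at 95% identity or more over 80% of the length or more. All but 5 members had a pseudogene copy, with a median of 5 and a maximum of 56 for Rpl21. Rpl8, Rplp2, Rps27l and Rps3 were among those with no pseudogene copy. Protein-coding transcripts held a copy at the same cutoffs for 15 members, Rplp2 among them, and the counts below leave these out. Genes differing by 1 or more were 3 of 34 with 0 to 3 copies, 5 of 29 with 4 to 9, and 3 of 15 with 10 or more, against 4.95% of all genes. Across the 78 members, Spearman's rho between the copies and the size of the difference was 0.04 and Pearson's r 0.00, and across 80 members the copies and the mean level per kilobase had 0.03 and -0.09. How reads that align to several places were counted is not given in the sources used here.

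**Figure D5:**
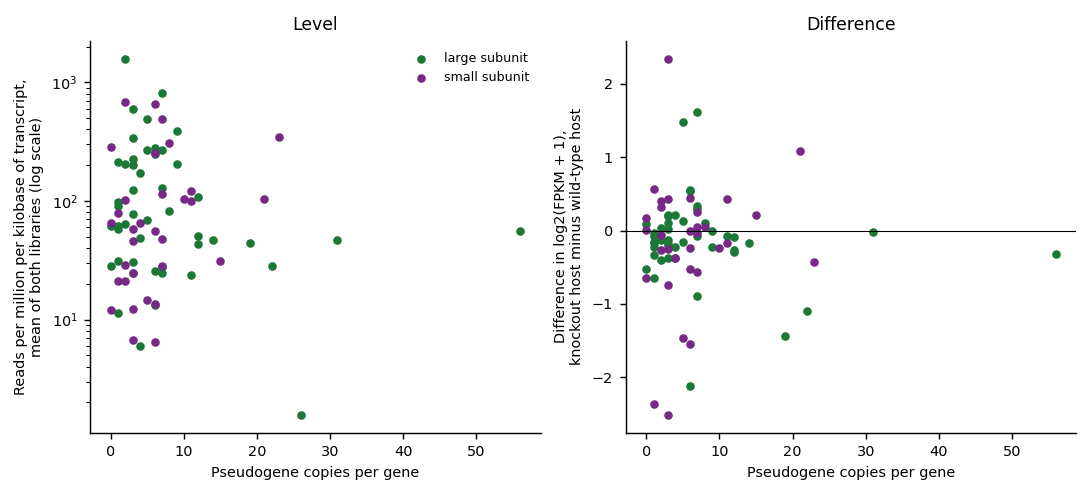
Number of pseudogene copies of each ribosomal protein gene against its level in RPM per kilobase of transcript (left, log scale, 80 genes) and against its difference in log2(FPKM + 1), KO host minus WT host (right, 78 genes). Genes past 1 or -1 are found from few copies (Rps26 and Rps27 with 3) to many (Rps12 with 21 and Rpl17 with 22).

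Some recovered values held a fraction of a read. Over all genes 4.95% differed by 1 or more, the share to set beside each count that follows. Of the 25 members whose reads were whole within 0.1 read in both libraries, Rps27 and Rps21 differed by 1 or more. Rps27 met this only through that tolerance, at 1.23e-04 reads in the WT host and 107.94 in the KO host. Of the 53 measured members with a fraction in a library, 9 differed by 1 or more. A snoRNA gene lay in the span of 30 members, of which 7 differed by 1 or more, with a median of -0.13. Of the 48 measured members without one, 4 did, with a median of -0.05. The snoRNA hosts included Rpl12, Rps13, Rpl23a, Rpl17, Rpl13, Rpl5 and Rps12. The spans of 15 members overlapped another listed gene, 14 of them only on the opposite strand, and whether strand was used in counting is not given in the sources used here. Among the genes past the size rule these were Rpl12 (with Lrsam1), Rpl23a (with Tlcd1) and Rpl5 (with Dipk1a). Lrsam1 had a difference of -0.14, the sign of Rpl12, while Dipk1a had -0.27 and Tlcd1 0.61, each opposite in sign to the member it overlaps. The 4 X-linked members Rpl10, Rps4x, Rpl36a and Rpl39 had differences of 0.10, -0.56, 0.03 and -0.22.

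In the lists of genes that build, deliver or regulate ribosomal proteins, the counts past the size rule were near the 4.95% of all genes. Of 45 measured ribosome assembly factors none was higher and 1 lower by 1 or more, Polr1c, a subunit of RNA polymerases I and III, at -1.28. The median was 0.02, and Nop10 and Nop16 had 0.89 and -0.88. None of 5 measured dedicated ribosomal protein chaperones passed, and Bccip, Grwd1 and Tsr2, the last of which escorts Rps26, had 0.59, 0.42 and 0.25. Of 13 measured genes that control TOP mRNAs none passed, with Mlst8, a part of mTOR complexes, at -0.81, Eif4ebp1, the repressor of cap-dependent translation, at -0.47 and Rheb, the activator of mTOR, at 0.35. On the read scale 2 of the 15 listed were lower by 1 or more in log2 ratio and none higher. These were Mlst8 and Rps6kb2, the latter below the filter with 121 and 2 reads. Their share of 13.3% was near the 11.3% of all genes.

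The other mRNAs with a TOP tract code mostly for translation factors. None of 19 measured genes differed by 1 or more, a count near the 4.95% of all genes, and the difference from the ribosomal proteins was not tested. Of the 19, 5 were above and 14 below 0, where all 6057 genes gave 2816 and 3241. The median of the 19 was -0.12, close to the -0.10 of the ribosomal proteins. Eef1d was at 0.56, Pabpc1, the poly(A)-binding protein, at -0.47 and Btf3 at 0.45. The ribosome parts that the naming rule leaves out gave Fau -0.18, Rack1 -0.13 and Rpl36al 0.14. Of 37 measured mitochondrial ribosomal protein genes 1 was higher (Mrpl53, 2.57) and 2 lower (Mrpl36, -1.38, and Mrpl50, -1.19), with a median of -0.08. Together they were 8.11% of the 37, against 4.95% of all genes. Mrpl53 had only 13 reads in the WT host and 172.5 in the KO host.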

How the data were processed

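Libraries of RNA depleted of ribosomal RNA were made from sorted live CD45- cells, per the labels' protocols. The submitters' processing notes name STAR 2.7.8a, Partek and mm39, without their roles. The authors deposited 1 table of log2(FPKM + 1) values, with 1 column per library; FPKM there is per kilobase of genomic span. Reads were recovered as FPKM times span, scaled to the smallest steps. The members, lists and comparisons were chosen with earlier results of these data known. Differences are KO host minus WT host on the deposited log2 scale, over genes with a mean of at least 1, and a size of 1 was the rule for counting a gene as higher or lower. Ratios of RPM (reads scaled to library depth) have 95% exact conditional binomial intervals, and shares of reads Clopper-Pearson intervals. With 1 library per host there was no test, and depth limits the precision of the members with few reads. Levels between genes were given on the log2 scale or per kilobase of a GENCODE M21 transcript of middle length among the best-supported ones. For Rps15a and Rps20 this transcript is long. Copies were found with blastn 2.17.0. RefSeq windows on GRCm38.p6 were matched by symbol and kept apart from mm39 coordinates. Full values were planned for members listed at 0, past the size rule, highest, lowest or most different in each subunit, for the stalk, the Rpl5 and Rpl11 pair, Rps27a, Rps6 and the paralogues, and for the 3 largest differences of each other list. Alternatives were other added constants, filters and scalings and other member sets, and the one without Rpl13 was chosen after its values were seen. Scripts ran in Python 3.11.15 with numpy 2.4.6, pandas 2.3.3, scipy 1.17.1 and matplotlib 3.10.9, and were tested on simulated data. Some genes are not reported by name here, though they enter the counts and sums.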

Additional observations from a re-analysis of the deposited data

How the results depend on the processing

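The family's median difference of -0.10 was -0.087 with 5 added in place of 1, -0.049 over genes with a mean of at least 3, -0.13 on recovered reads, -0.075 after centring on all genes, -0.11 after quantile normalization, -0.033 over members with whole reads, -0.070 without the paralogues, and -0.12 without Rps27 and likewise without Rpl13. Its interquartile range of 0.48 was 0.55 with 0.1 added, 0.34 with 5 added, 0.52 with no filter, 0.41 at a mean of 3, 0.56 on reads, 0.41 after quantile normalization, 0.59 over whole-read members, 0.46 without the paralogues, and 0.46 without Rps27 or without Rpl13. The count of higher genes, 4, was 2 with 5 added (Rpl13, Rpl5) and 1 over whole-read members (Rps27). The count of lower genes, 7, was 3 with 5 added (Rpl12, Rps21, Rps26), 1 at a mean of 3 (Rpl23a) and 1 over whole-read members (Rps21). The share of all genes was not counted under these changed settings. These counts therefore have no background and do not tell whether the family's share stayed above that of all genes. The large subunit median of -0.13 was -0.11, -0.070, -0.097 and -0.095 with 5 added, at a mean of 3, centred and over whole-read members, and -0.10 without the paralogues. The small subunit median of -0.05 was -0.039 with 5 added, 0.0067 at a mean of 3, so of the other sign, -0.019 centred, -0.083 after quantile normalization, -0.032 over whole-read members, -0.032 without the paralogues and -0.064 without Rps27. The summed ratio of 1.04 was 1.08 with a TMM factor and 1.08 with a median-of-ratios factor, 1.06 without the 3 members with the most reads, and below 1 over whole-read members (0.922) and without Rpl13 (0.971). The member sets were summed at total-read scaling only. The TMM and median-of-ratios factors were 0.964 and 0.963. Dividing 0.971 by either gives a value above 1, so the reversal without Rpl13 depends on the scaling. The change in the large to small ratio of 1.07 was 1.11 without those 3 genes, 0.968 over whole-read members and 0.966 without Rpl13. Apart from the member sets, whose construction leaves out genes, the cause was not tested. No paired analysis was possible because each host genotype has 1 library and the labels carry no replicate numbers. Depth limits the members with few reads: Rps21 and Rps29 had 46 and 46.3 reads in the KO host.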
